A study of Mus musculus with 45 samples.

Results

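The genes described here encode the enzymes that make serine, one-carbon units and the purine and pyrimidine nucleotides of RNA and DNA. The set was defined by gene symbol and held 31 genes of the 55450 in the expression table. It was divided by role into serine synthesis (3 genes), folate enzymes (5), deoxynucleotide supply (6), pyrimidine synthesis (4), phosphoribosyl pyrophosphate (PRPP) and purine synthesis up to inosine monophosphate (IMP) (7), the steps from IMP to AMP and GMP (4) and nucleoside diphosphate kinases (2). All 31 genes passed the filter on low counts in every comparison, and the lowest count of any of them in any sample was 42, for Tk1.

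RNA-sequencing was performed on 4 lymphocyte populations sorted from the popliteal lymph nodes that drain the hind footpad, 9 or 6 days after the footpad was injected with 20 µL of an IFA emulsion containing 50 µg OVA and 5 µg LPS. IFA is an oil adjuvant, OVA (ovalbumin) is the protein antigen and LPS is a bacterial cell wall product that activates innate cells. The mice were male and female, 8 to 12 weeks old, and were either WT littermates or S1PR4-/-, a line backcrossed to C57BL/6 in which the sphingosine 1-phosphate receptor gene S1pr4 is disrupted in every cell of the body and not in lymphocytes alone. Germinal center (GC) B cells (B220+GL7+Fas+) and non-GC B cells (B220+GL7-Fas-) were sorted on Day 9, and follicular helper T (TFH) cells (TCRβ+CD4+PD1+CXCR5+) and non-TFH cells (TCRβ+CD4+PD1-CXCR5-) on Day 6, so cell lineage and day cannot be told apart. There were 6 samples in each of the 8 groups of population and genotype, apart from the non-GC B cells (5 WT and 4 S1PR4-/- samples). The sorts were made from 6 WT and 6 S1PR4-/- mice, as many as the samples of a full group, but which samples came from the same mouse is not stated, and p-values measure the spread between these samples.

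Totals per sample lay between 26299429 and 45548215 expected counts. S1pr4 had 505 to 6305 counts in the WT samples and 0 to 40 in the S1PR4-/- samples. The lineages of the sorted cells were borne out by markers. The 12 B cell markers summed to at least 8259 CPM (counts scaled to the depth of the sample) in every GC B sample. The 12 T cell markers summed to at least 7054 CPM in every TFH sample. For the sorts within a lineage, 8 GC B cell markers summed to 1477 to 2609 CPM in GC B and 137 to 190 CPM in non-GC B samples. The 8 TFH cell markers summed to 2661 to 4094 CPM in TFH and 209 to 486 CPM in non-TFH samples. The TFH list holds Cxcr5 and Pdcd1 (PD1) and the GC B list holds Fas, genes of the sort markers, so these sums are not independent of the sort. B cell markers were also present in T cells and were unequal between the genotypes. In TFH cells they summed to 179 to 492 CPM in WT and 162 to 296 CPM in S1PR4-/- samples, and in non-TFH cells to 64.8 to 106 CPM and 59.2 to 72.3 CPM.

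Serine made from a glycolytic intermediate is converted to glycine by the SHMT enzymes, and the carbon released is carried on folate. The MTHFD enzymes pass that carbon on as formate, which enters the purine ring and the methyl group of thymidylate. Purine rings are built stepwise on PRPP, while the pyrimidine ring is built first and then joined to it. Ribonucleotide reductase turns ribonucleotides into deoxynucleotides for DNA, and its small subunit is made chiefly in S phase. Activated lymphocytes that divide rapidly, as GC B cells do, depend on these routes, and drugs that block them, such as mycophenolate and leflunomide, are used to suppress lymphocyte responses.

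The sequences upstream of the start sites were searched for letters that sequence-specific factors of growth and cell division are known to bind. RefSeq promoters of assembly GRCm38.p6 were matched by symbol for 29 of the 31 genes, all but Dhodh and Pfas. The 250 bases upstream of each start were read on both strands for CACGTG (an E-box, bound by MYC and other factors), TTTNNCGC (E2F), TGATGNAA (ATF4) and CCAAT (NF-Y). CACGTG was present in 5 of the 29 genes (17.2%, against 6.86% of the 27025 genes in the table), namely Tyms, Paics, Atic, Impdh2 and Nme1. TTTNNCGC was present in 4 (13.8% against 4.94%), namely Psph, Prps1, Ppat and Nme1, and TGATGNAA in 1, Prps1 (3.45% against 3.91%). CCAAT was present in 13 (44.8% against 37.5%). These matches describe letters in a window and are not binding sites, and a gene with no match may hold these letters elsewhere. The promoters of Rrm2 and Mthfd2 are shown because Rrm2 had the largest change in GC B cells and Mthfd2 the largest among the folate genes, with CCAAT or its reverse complement ATTGG in capitals.
Rrm2, chr12:24708004-24708253, + strand: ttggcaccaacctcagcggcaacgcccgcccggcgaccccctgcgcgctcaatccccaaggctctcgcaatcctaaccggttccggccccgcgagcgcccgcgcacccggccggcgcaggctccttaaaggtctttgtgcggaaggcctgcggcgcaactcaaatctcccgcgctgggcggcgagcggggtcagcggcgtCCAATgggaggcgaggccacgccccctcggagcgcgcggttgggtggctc
Mthfd2, chr6:83317605-83317854, - strand: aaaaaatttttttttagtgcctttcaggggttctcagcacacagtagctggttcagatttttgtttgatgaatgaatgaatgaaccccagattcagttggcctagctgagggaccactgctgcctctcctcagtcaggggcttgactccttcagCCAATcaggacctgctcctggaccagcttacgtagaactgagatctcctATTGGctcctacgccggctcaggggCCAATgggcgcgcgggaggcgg
The promoters of Tyms and Impdh2 are shown because they hold CACGTG, given in capitals, and because Impdh2 and its isozyme Impdh1 moved apart, as described further on. No start of Impdh1 in the table had any of the 4 motifs in this window.
Tyms, chr5:30073626-30073875, - strand: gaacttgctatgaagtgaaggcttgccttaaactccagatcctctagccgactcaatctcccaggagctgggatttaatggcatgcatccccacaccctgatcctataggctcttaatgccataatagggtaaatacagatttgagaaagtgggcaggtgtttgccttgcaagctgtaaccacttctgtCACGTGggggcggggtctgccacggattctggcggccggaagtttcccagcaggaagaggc
Impdh2, chr9:108560186-108560435, + strand: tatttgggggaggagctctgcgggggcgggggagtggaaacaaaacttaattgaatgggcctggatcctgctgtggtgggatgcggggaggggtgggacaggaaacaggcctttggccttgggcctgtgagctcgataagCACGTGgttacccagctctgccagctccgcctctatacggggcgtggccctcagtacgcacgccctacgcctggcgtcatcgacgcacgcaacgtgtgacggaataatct

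GC B cells were compared with non-GC B cells to ask how far nucleotide synthesis genes are raised in the GC. In WT mice 26 of the 31 genes were called, 25 higher and 1 lower (SE is the standard error of a log2 fold change, and a call is an FDR under 0.05 in edgeR's quasi-likelihood test with a fold change over 1.5). Of all 13324 genes tested, 47.8% were called, 24.8% higher and 23.1% lower. The median log2 fold change of the 31 genes was 1.11, against 0.0021 for all genes. Without the fold limit 30 of the 31 had an FDR under 0.05, as did 67.2% of all genes. In 27 of the 31 genes every WT GC B sample lay above every WT non-GC B sample, which held for 25.4% of all genes, and in 1, Dhodh, every one lay below, as for 25.4% of all genes. Plasma cell markers (8 genes) rose with the GC B sort, 7 of the 8 being called higher. They summed to 922 to 1261 CPM in WT non-GC B and 4412 to 9109 CPM in WT GC B samples, and to 1112 to 1141 CPM and 2345 to 18141 CPM in the S1PR4-/- samples. None was at 0, and the part of plasma cell RNA in the members' changes was not tested.

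In the serine branch all 3 genes rose in WT GC B cells. Psat1, the aminotransferase of the second step, was at 20.7 to 24.3 CPM (median 23.8) in WT non-GC B cells and at 101 to 167 CPM (median 133) in WT GC B cells. The ranges were far apart, with a log2 fold change of 2.57 ± 0.13 (SE, adjusted p = 6.98e-09). Phgdh, the dehydrogenase that commits carbon to serine, rose by 1.46 ± 0.13 on the log2 scale (SE, adjusted p = 9.01e-07), from 128 ± 14.7 CPM (SD, n = 5) to 338 ± 64.6 CPM (SD, n = 6). Psph, the phosphatase of the last step, rose by 1.03 ± 0.10 (SE). The same genes in WT TFH against non-TFH cells gave 2.32 for Psat1, 1.13 for Phgdh and 0.37 for Psph, and Psph did not reach the fold limit there.

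All 5 folate genes rose in WT GC B cells. Mthfd2, the mitochondrial enzyme that oxidizes folate-bound carbon and is known for its low level in most resting adult cells, was at 14.9 to 23.7 CPM (median 17.4) in non-GC B cells and at 67.8 to 81.5 CPM (median 77.7) in GC B cells. The log2 fold change was 2.11 ± 0.12 (SE, adjusted p = 1.50e-08). The mitochondrial Shmt2 rose by 1.62 ± 0.13 (SE, adjusted p = 3.22e-07), and the cytosolic Shmt1 by 1.84 ± 0.22 (SE, adjusted p = 8.10e-06). Mthfd1, the cytosolic trifunctional enzyme, had a log2 fold change of 0.82, and Mthfd1l, which releases formate in mitochondria, one of 0.90.

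Deoxynucleotide genes had the largest median log2 fold change of any role in WT GC B cells, 3.35, and all 6 rose. Rrm2, the small subunit of ribonucleotide reductase, was at 6.36 to 12.3 CPM (median 9.59) in WT non-GC B cells and at 483 to 1057 CPM (median 644) in WT GC B cells. Its log2 fold change of 6.25 ± 0.28 (SE, adjusted p = 2.95e-09) was the largest of the 31. Tyms, which methylates dUMP to dTMP, rose by 4.12 ± 0.23 (SE), and Tk1, the thymidine kinase of dividing cells, by 3.78 ± 0.20 (SE). Dut, which breaks down dUTP, rose by 2.93 ± 0.12 (SE). Rrm1, the large subunit, rose by 2.58 ± 0.15 (SE) from a higher starting level of 102 ± 12.4 CPM (SD, n = 5). Dctpp1, which removes dCTP and its modified forms, rose by 1.80 ± 0.18 (SE). The subunits therefore moved by different amounts: the ratio of Rrm2 to Rrm1 per kilobase of exon was 0.26 to 0.51 in WT non-GC B samples and 3.95 to 5.76 in WT GC B samples.

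The genes that build the pyrimidine ring did not move together in WT GC B cells. Umps, the bifunctional enzyme that makes UMP, was at 51.6 to 67.3 CPM (median 55.2) in non-GC B cells and at 120 to 173 CPM (median 154) in GC B cells, with a log2 fold change of 1.46 ± 0.12 (SE, adjusted p = 3.78e-07). Ctps, which makes CTP from UTP, rose by 1.22 ± 0.12 (SE). Cad, the enzyme of the first steps, overlapped between the groups, with a log2 fold change of 0.53 ± 0.20 (SE, adjusted p = 0.0287). Dhodh, the mitochondrial enzyme of the pathway and the target of leflunomide, fell by 0.60 ± 0.10 on the log2 scale (SE, adjusted p = 2.07e-04), from 44.6 to 61.4 CPM (median 51.4) to 28.0 to 39.6 CPM (median 31.9). No WT GC B sample reached a non-GC B sample for Dhodh, but the change lay so near the fold limit that it was not called by DESeq2 (log2 fold change -0.58) or when any of WT GC B samples 3, 4 and 5 or WT non-GC B sample 4 was left out (-0.58 to -0.53, with adjusted p of at most 0.000865).

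Purine ring genes had smaller values. Of the 7 genes from PRPP to IMP, 4 were called higher in WT GC B cells, with a median log2 fold change of 0.73. Paics, which joins carbon dioxide and aspartate to the growing ring, was at 130 to 157 CPM (median 138) in non-GC B cells and at 252 to 305 CPM (median 286) in GC B cells. Its log2 fold change came to 1.07 ± 0.08 (SE, adjusted p = 1.17e-07). Ppat, which commits PRPP to purines, rose by 0.85 ± 0.11 (SE). The genes for Paics and Ppat lie head to head on chromosome 5 (76951307 to 76967509 on the + strand and 76913249 to 76951578 on the - strand in mm10) and their first exons overlap, so reads there could be split between them. Gart, a trifunctional enzyme of the pathway, gave 0.93 and Pfas 0.73. The 3 genes not called were Prps1 (0.54), Adsl (0.58) and Atic (0.43), with Adsl just under the fold limit. Prps1 makes PRPP itself, and its samples overlapped, at 55.1 to 78.8 CPM and 71.2 to 108 CPM. Adsl and Atic had adjusted p of 7.25e-06 and 0.00156, so they missed the call by size and not by FDR.

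Beyond IMP, the branches to GMP and AMP rose apart from 1 isozyme. IMP dehydrogenase, the step to GMP that mycophenolate blocks, has 2 isozymes. Impdh2 was at 79.2 to 93.3 CPM (median 82.7) in WT non-GC B cells and at 144 to 199.7 CPM (median 178) in WT GC B cells. Its log2 fold change came to 1.11 ± 0.09 (SE, adjusted p = 5.20e-07). Impdh1 was at 42.1 to 50.9 CPM (median 48.0) and at 42.6 to 103 CPM (median 51.4), and its log2 fold change of 0.41 ± 0.20 (SE, adjusted p = 0.0915) was not called. The WT GC B sample at 103 CPM was also the one with the highest plasma cell marker score (mean log2 CPM of 8 genes, 6.87 to 8.13 in WT GC B samples). Gmps, which finishes GMP, rose by 0.69 and Adss, which starts the branch to AMP, by 0.83. The kinases that convert nucleoside diphosphates to triphosphates also rose, Nme1 by 1.29 and Nme2 by 1.33. Nme1 and Nme2 lie in tandem on chromosome 11 and share a read-through gene, Gm20390, whose group means were at most 0.50 CPM. A processed copy of Impdh2, Impdh2-ps, had group means of at most 3.11 CPM.

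**Figure D1:**
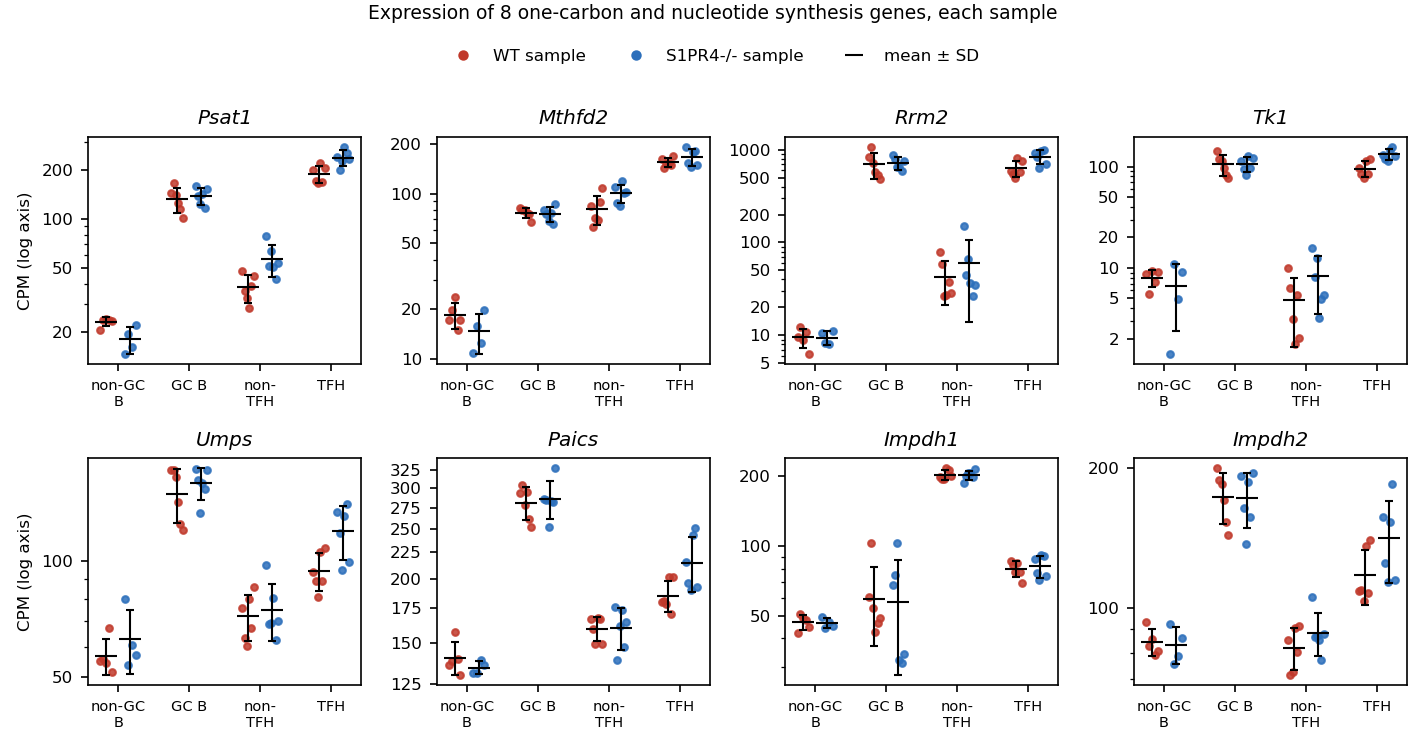
CPM on a log axis for 8 of the 31 genes in each sample of the 4 populations, with WT in red, S1PR4-/- in blue and the mean ± SD in black. Rrm2 is at 483 CPM or more in every GC B and TFH sample and at 149.5 CPM or less in every other sample. Impdh1 is highest in non-TFH cells, at 188 to 217 CPM.

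TFH cells were compared with non-TFH cells in the same way. In WT mice 12 of the 31 genes were called, 10 higher and 2 lower, where 43.2% of the 13481 genes tested were called, 22.8% higher and 20.4% lower. The median log2 fold change of the 31 genes was 0.43 (0.00025 for all genes). Without the fold limit 27 of the 31 genes had an FDR under 0.05, 23 of them higher, as did 68.7% of all genes in either direction. WT TFH samples lay above every non-TFH sample in 18 genes and below every one in 3 (25.5% and 23.1% of all genes). Sums over marker lists named for other cells also differed between WT TFH and WT non-TFH samples without overlap. B cell markers summed to 179 to 492 CPM against 64.8 to 106 CPM, and plasma cell markers to 346 to 728 CPM against 182 to 242 CPM. GC B cell markers summed to 272 to 345 CPM against 97.6 to 123 CPM, and CD8 T and NK cell markers to 59.5 to 102 CPM against 29.8 to 40.7 CPM. Bcl6 is on both the GC B and the TFH list, and 4 of the 8 GC B cell markers had means under 1 CPM in WT TFH cells. The sums alone therefore do not show that RNA of other cells was present. With the 3 WT TFH samples richest in B cell markers left out, 15 genes were called, Impdh2 and Nme1 among them. The share of all genes called in that fit is not given here. Without the fold limit 27 of the 31 had an FDR under 0.05 in it, as did 58.9% of all genes.

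The 10 genes called higher in TFH cells were all 6 deoxynucleotide genes, 2 of 3 serine genes and 2 of 5 folate genes. Tk1 was at 1.77 to 9.97 CPM (median 4.28) in WT non-TFH cells and at 77.0 to 118 CPM (median 91.1) in WT TFH cells, a log2 fold change of 4.33 ± 0.35 (SE, adjusted p = 5.81e-08). Rrm2 was at 26.4 to 78.4 CPM (median 33.0) and at 491 to 812 CPM (median 581), a log2 fold change of 3.88 ± 0.28 (SE, adjusted p = 1.62e-08). Tyms rose by 3.02, Rrm1 by 2.38, Dctpp1 by 1.91 and Dut by 1.75. No TFH sample overlapped a non-TFH sample for any of these 6 genes. Psat1 went from 28.1 to 48.1 CPM (median 37.1) in non-TFH cells to 167 to 220.5 CPM (median 185) in TFH cells, a log2 fold change of 2.32 ± 0.12 (SE, adjusted p = 8.65e-10). Of the folate genes only Shmt1 (1.40 ± 0.12 SE) and Mthfd2 (0.94 ± 0.11 SE) were called. Shmt2, Mthfd1 and Mthfd1l had log2 fold changes of 0.31, 0.44 and 0.48 with adjusted p of at most 0.00541. The ratio of Shmt1 to Shmt2 per kilobase was accordingly 0.12 to 0.17 in WT non-TFH samples and 0.26 to 0.35 in WT TFH samples, while in B cells it was 0.09 to 0.19 in non-GC and 0.16 to 0.19 in GC samples.

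None of the 7 purine ring genes was called in WT TFH cells. Prps1, at 101 to 122 CPM (median 116) in WT non-TFH cells and 77.3 to 94.4 CPM (median 80.4) in WT TFH cells, had no overlap and a log2 fold change of -0.46 ± 0.07 (SE, adjusted p = 1.91e-05). The fold stayed below the limit. Pfas (0.43), Atic (0.22), Paics (0.21), Ppat (0.13), Adsl (-0.12) and Gart (-0.25) completed the group, and Atic, Ppat and Adsl had adjusted p of 0.112, 0.167 and 0.151. Impdh1 fell most of the 31, from 194 to 217 CPM (median 199.7) in WT non-TFH to 69.5 to 86.2 CPM (median 80.2) in WT TFH cells. Its log2 fold change was -1.35 ± 0.06 (SE, adjusted p = 1.71e-10). Impdh2 went the other way, from 71.7 to 91.2 CPM (median 82.8) to 104 to 140 CPM (median 109), with a log2 fold change of 0.52 ± 0.09 (SE, adjusted p = 1.60e-04) that did not reach the fold limit. Per kilobase of exon, the ratio of Impdh1 to Impdh2 was 2.06 to 2.55 in WT non-TFH samples and 0.47 to 0.74 in WT TFH samples. Non-TFH cells were thus the population in which Impdh1 exceeded Impdh2 in every WT sample, as the WT B cell samples had ratios of 0.23 to 0.58.

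In the pyrimidine branch of WT TFH cells Dhodh fell by 0.76 ± 0.10 on the log2 scale (SE, adjusted p = 1.40e-05), from 45.3 to 64.2 CPM (median 49.4) to 26.3 to 34.7 CPM (median 31.9). It was the only gene of the 31 called lower in WT mice in both the B cell and the T cell comparison. Cad (0.58), Umps (0.39) and Ctps (0.36) had positive log2 fold changes below the fold limit, as did Gmps (0.23), Nme1 (0.53) and Nme2 (0.39). Adss had a log2 fold change of -0.08 (adjusted p = 0.272).

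**Figure D2:**
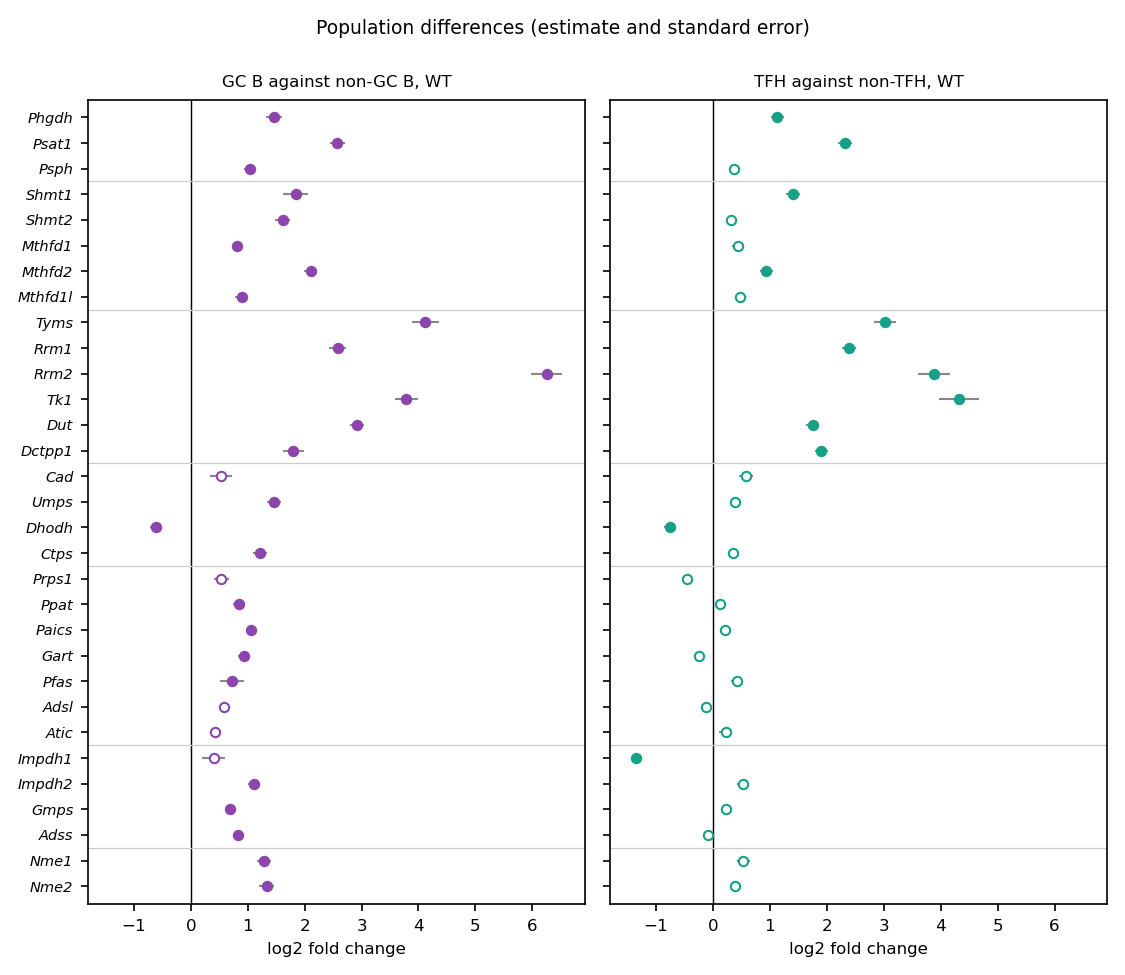
Log2 fold change of each of the 31 genes in WT GC B against non-GC B cells and in WT TFH against non-TFH cells, with bars for the standard error, filled points for called genes and grey lines between roles. The purine genes from Prps1 to Atic lie to the right of 0 in B cells and on either side of it in T cells.

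The difference between the B cell and the T cell comparison was tested directly as an interaction in WT mice. The log2 fold change was more positive in B cells at an FDR under 0.05 for 20 of the 31 genes and more negative for none. Of the 15101 genes tested 41.7% differed, 20.3% toward B cells and 21.4% toward T cells. Rrm2 differed most, by 2.30 ± 0.37 on the log2 scale (SE, adjusted p = 2.83e-05), followed by Impdh1 (1.69 ± 0.21 SE, adjusted p = 8.23e-07) and Shmt2 (1.24 ± 0.15 SE, adjusted p = 8.55e-07). The lowest p of the 31 belonged to Adss (0.84 ± 0.09 SE, adjusted p = 6.80e-08), Gart (1.11 ± 0.12 SE, adjusted p = 8.31e-08) and Paics (0.79 ± 0.09 SE, adjusted p = 1.94e-07), all purine genes. By role, the genes that differed were 5 of the 7 purine ring genes, all 4 beyond IMP, both Nme genes, 3 of 5 folate genes, 3 of 6 deoxynucleotide genes, 2 of 4 pyrimidine genes and 1 of 3 serine genes, and the roles were not tested against each other. Psat1 (0.19 ± 0.17 SE), Phgdh (0.27 ± 0.17 SE), Rrm1 (0.13 ± 0.19 SE) and Dhodh (0.09 ± 0.15 SE) were among those with no detected difference. Tk1 had a negative difference of -0.61 ± 0.41 (SE, adjusted p = 0.253). Most markers of proliferation also rose more in GC B cells, 15 of 16 with a median difference of 1.28, and the part of proliferation in the members' difference was not tested.

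Other genes of these pathways were read from lists that did not overlap the 31. Their counts stand beside 24.8% of all genes called higher and 23.1% lower in GC B cells, and 22.8% and 20.4% in TFH cells, and several were near these shares. Of 14 tested purine salvage and breakdown genes, 9 were higher and 2 lower in WT GC B cells, led by Pnp2 (6.91), a purine nucleoside phosphorylase, and Ada (5.30), adenosine deaminase. Ada was at 4.29 to 7.82 CPM in WT non-GC B and 185 to 243 CPM in WT GC B samples. In WT TFH cells 4 of 14 were higher and 2 lower, with Ampd1, AMP deaminase, falling by 5.80 on the log2 scale. Of the other folate and methionine cycle genes, 6 were higher and 3 lower of 20 tested in GC B cells and 7 higher and 4 lower of 19 in TFH cells. Gldc, of the glycine cleavage system, was higher in TFH cells. It did not pass the filter on low counts among samples of non-TFH cells alone, so its fold is not given. Of the other deoxynucleotide genes, 6 were higher and 4 lower of 13 in GC B cells and 3 and 3 of 13 in TFH cells. Dck, deoxycytidine kinase, rose in both (1.86 and 1.38), and Tk2, the mitochondrial thymidine kinase, fell in both (log2 fold changes of -1.92 and -1.15). Pyrimidine salvage and breakdown genes gave 4 higher and 2 lower of 8 in GC B cells and 2 and 3 of 7 in TFH cells, with Uck2, uridine-cytidine kinase, at 2.54 and 0.66. Among PRPP synthase relatives and nucleotide kinases 8 of 13 were higher in GC B cells and 3 of 14 in TFH cells. Counts of genes called lower are not given for this list, the ATF4 targets or the transcription factors. All 16 proliferation genes rose in both comparisons, with medians of 4.83 and 3.92. Among other targets of ATF4, the factor of the amino acid response, 6 of 9 were higher in GC B and 4 of 9 in TFH cells, and Asns, asparagine synthetase, rose by 4.96 and 3.72. Of 8 tested transcription factors of the MYC, E2F and ATF4 families, 5 were higher in GC B and 6 in TFH cells. E2f8 led in TFH cells (4.26). E2f8 did not pass the filter on low counts among samples of non-GC B cells alone, so its fold in GC B cells is not given.

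S1PR4-/- mice gave the same comparisons in separate samples. In S1PR4-/- GC B cells 27 of the 31 genes were called and all 27 were higher, where 48.2% of all genes were called and 25.3% were higher. The median log2 fold change was 1.15. Every S1PR4-/- GC B sample lay above every non-GC B sample in 26 genes and below in 1 (26.4% and 26.7% of all genes). Rrm2 rose by 6.30 ± 0.18 (SE), Psat1 by 3.00 ± 0.15 (SE) and Mthfd2 by 2.41 ± 0.17 (SE). Dhodh, at -0.51 ± 0.12 (SE, adjusted p = 0.00331), stayed below the fold limit. In S1PR4-/- TFH cells 16 genes were called, 15 higher and 1 lower, with 43.4% of all genes called, 22.3% higher and 21.1% lower. The median log2 fold change was 0.58, and S1PR4-/- TFH samples lay above all non-TFH samples in 18 genes and below in 2 (25% and 23.5% of all genes). Sums over lists named for other cells again differed without overlap. S1PR4-/- TFH samples had 307 to 335 CPM of plasma cell markers against 192 to 280 CPM in non-TFH samples. GC B cell markers summed to 249.96 to 388 against 95.9 to 155 CPM, and CD8 T and NK cell markers to 50.5 to 72.4 against 29.9 to 43.1 CPM. Of the 8 plasma cell markers 5 had means under 1 CPM in these non-TFH samples, and Bcl6 is on both the GC B and the TFH list. These sums alone do not show RNA of other cells. The gene called lower was Impdh1 (-1.29 ± 0.07 SE), and Cad (0.69), Umps (0.70), Pfas (0.69), Impdh2 (0.70) and Mthfd1 (0.60) were above the fold limit there but not in WT mice.

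Whether the genotype changed these population differences was tested as an interaction. No member had an FDR under 0.05 in B cells, where 0% of the 14490 genes tested did, and 1 of the 31, Psat1, had an unadjusted p under 0.05 against 4.58% of all genes. In T cells no member had an FDR under 0.05, with 0.0139% of the 14401 genes tested. An unadjusted p under 0.05 was found for 3 of the 31 (Gmps, Ppat and Dhodh), against 9.2% of all genes. With the replicate number as a block this count was 6 (10.3% of all genes), and with the block set within genotype it was 5 (11.5%). No member had an FDR under 0.05 in either blocked fit. DESeq2 called 0 members in either test.

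S1PR4-/- and WT cells of the same population were then compared. In GC B cells no member was called (0.0612% of all genes were), none had an unadjusted p under 0.05 (4.13% of all genes did) and DESeq2 called none. The log2 fold changes lay between -0.16 and 0.15 with a median of 0.019 and standard errors of 0.069 to 0.33. The genes with the lowest p were Adss (0.12 ± 0.08 SE), Pfas (0.15 ± 0.14 SE) and Nme1 (-0.13 ± 0.12 SE), each with an adjusted p of 0.985. Adss was at 98.4 to 118 CPM (median 107) in WT and 90.9 to 136 CPM (median 119) in S1PR4-/- GC B samples, and the ranges overlapped. Impdh1 had the largest standard error, 0.33, and was at 31.3 to 103 CPM (median 51.3) in S1PR4-/- GC B samples. Samples 4, 5 and 6, at 31.3 to 34.3 CPM, had plasma cell marker scores of 5.76 to 6.34, and samples 1, 2 and 3, at 68.3 to 103 CPM, had scores of 7.63 to 8.93. The part of plasma cell RNA in Impdh1 was not tested. No member was free of overlap between the genotypes (0.207% of all genes were). In non-GC B cells no member was called (0.0537% of all genes were), DESeq2 called none, and 2 had an unadjusted p under 0.05, Psat1 (-0.35 ± 0.13 SE) and Nme2 (-0.32 ± 0.13 SE), against 4.55% of all genes. Both had an adjusted p of 0.981, as did Adss (0.16 ± 0.08 SE). The log2 fold change was positive for 8 and negative for 23 of the 31, against 48.2% positive for all genes. This tally was 6 to 13 positive when 1 sample was left out, the 13 being reached without S1PR4-/- non-GC B sample 2 or without sample 3. Markers of CD8 T and NK cells split these samples, with scores of 1.91 and 2.70 in WT samples 5 and 4 and 0.11 to 1.55 in S1PR4-/- samples 2, 3 and 4, against -3.50 to -2.49 in the other 4 samples. Their sum was 0.819 to 44.8 CPM in WT and 0.677 to 19.7 CPM in S1PR4-/- non-GC B samples, none of the 6 was at 0, and the part of such RNA in the members' values was not tested. The median was -0.056, and none was free of overlap (1.79% of all genes were).

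TFH cells gave values on one side of 0 for most members, with few past the threshold. No member was called with the fold limit (0.496% of all genes were), and DESeq2 called none with the same limits. An unadjusted p under 0.05 was found for 20 of the 31, against 19.2% of all genes. The log2 fold change was positive for 28 of the 31, against 49.4% of all genes, with a median of 0.28. Rrm1 was the 1 member with an FDR under 0.05 (1.41% of all genes had one). It was at 390 to 547 CPM (median 437) in WT and at 515 to 674 CPM (median 613) in S1PR4-/- TFH samples, a log2 fold change of 0.40 ± 0.09 (SE, adjusted p = 0.0499). The ranges overlapped. When each sample was left out in turn the adjusted p of Rrm1 ran from 0.0236 to 0.112 and was under 0.05 in 4 of 12 cases, so this result rests on the samples included. The members with an FDR under 0.05 numbered 6 without WT TFH sample 4 and 3 without WT sample 6. They numbered 4 without S1PR4-/- sample 2 or without S1PR4-/- sample 3, and 0 without any 1 of the other samples. Shares of all genes are not given for these fits, so these counts do not show whether members moved more than all genes did. The adjusted p of Rrm1 was also above 0.05 with total counts or DESeq2 size factors as the scaling, with no filter on low counts and in 1 fit of all 8 groups. Tk1 was at 77.0 to 118 CPM (median 91.1) in WT and 114 to 155 CPM (median 128) in S1PR4-/- samples (log2 fold change 0.46 ± 0.11 SE, adjusted p = 0.0532). Mthfd1l gave 0.33 ± 0.08 (SE, adjusted p = 0.0553), from 71.7 to 95.6 CPM (median 80.3) to 91.1 to 113 CPM (median 105). No member was free of overlap between the genotypes (1.87% of all genes were). Atic (-0.02), Nme2 (-0.01) and Adss (-0.16) were the members with a negative value. With no fold limit DESeq2 gave an FDR under 0.05 for 11 members, against 7.38% of all genes.

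Levels of plasma cell markers, B cell markers and proliferation genes were read in the same TFH samples. The plasma cell marker score was 3.15 to 5.10 in WT and 1.10 to 3.13 in S1PR4-/- TFH samples, with no overlap, and 3 of the 7 plasma cell markers tested were called lower, namely Mzb1 (-4.35), Jchain (-3.64) and Derl3 (-1.88). Of the 7, 6 had an unadjusted p under 0.05 and 1 had a positive value. The part of plasma cell RNA in the members' values was not tested. The B cell marker score (mean log2 CPM of the 12 genes) was 1.61 to 4.67 in WT and -0.52 to 3.66 in S1PR4-/- TFH samples, ranges that overlapped, and 1 of the 12 markers, Blnk (-2.99), was called lower. Of the 12, 8 had an unadjusted p under 0.05 and 1 had a positive value, where 19.2% of all genes had such a p. The mean log2 CPM of the 31 genes was 6.58 to 6.88 in WT and 6.74 to 7.16 in S1PR4-/- samples. None of the 16 proliferation genes was called with the fold limit, but all 16 had a positive value, 13 had an unadjusted p under 0.05 and 1, Mcm6 (0.37 ± 0.07 SE, adjusted p = 0.0274), had an FDR under 0.05. Their median log2 fold change was 0.32, and their score was 7.95 to 8.40 in WT and 8.24 to 8.71 in S1PR4-/- samples, which overlapped. Adding the B cell marker score to the fit left 4 members, 3 higher and 1 lower, at an unadjusted p under 0.05 (11.1% of all genes), and the median log2 fold change of the members was 0.11. Leaving out the 3 WT samples of highest B cell score left 6 such members (9.23% of all genes) with a median of 0.17, and leaving out S1PR4-/- TFH sample 3 as well left 10 (9.81%) with a median of 0.21. Adding the proliferation score instead left 3, 1 higher and 2 lower (12% of all genes), and the median was -0.00284. Several proliferation genes and deoxynucleotide genes are known to be expressed together in S phase. In bulk samples, fewer cells of a type and less RNA per cell cannot be told apart.

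**Figure D3:**
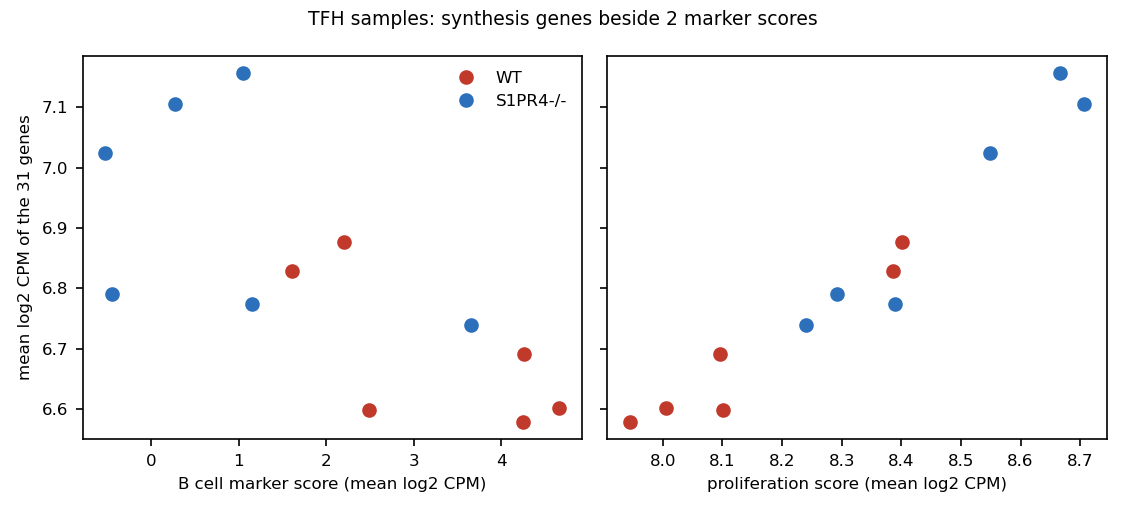
Mean log2 CPM of the 31 genes in each TFH sample against the B cell marker score (left) and the proliferation score (right), with WT in red and S1PR4-/- in blue. The 3 WT samples with a B cell score above 4 are among the 4 samples with the lowest means of the 31 genes, and the means rise with the proliferation score over both genotypes.

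In non-TFH cells no member was called (0.114% of all genes were) or had an FDR under 0.05, DESeq2 called none with the same limits, and 8 had an unadjusted p under 0.05 against 11.3% of all genes. The log2 fold change was positive for 26 of the 31, against 51.2% of all genes, with a median of 0.16. The 3 genes with the lowest p were serine and folate genes, although Tk1 (0.80) had the largest log2 fold change, with a standard error of 0.44. Mthfd1l was at 48.5 to 65.5 CPM (median 59.9) in WT and at 68.4 to 83.4 CPM (median 75.0) in S1PR4-/- samples (log2 fold change 0.36 ± 0.08 SE, adjusted p = 0.0635). It was the 1 member without overlap between the genotypes, as were 1.17% of all genes (0.364% in the higher direction). Phgdh gave 0.40 ± 0.10 (SE, adjusted p = 0.1), from 125 to 182 CPM (median 152) to 176 to 236 CPM (median 193), and Shmt1 0.47 ± 0.12 (SE, adjusted p = 0.118), from 16.2 to 28.1 CPM (median 20.99) to 24.2 to 35.2 CPM (median 29.5). Their ranges overlapped. Without WT non-TFH sample 6, 3 members had an FDR under 0.05, and the share of all genes in that fit is not given here. In 1 fit of all 8 groups 1 member had one, as did 0.216% of all genes. The 3 serine genes had a median of 0.40 and the 5 folate genes one of 0.31, while the 7 purine ring genes had one of 0.051. With no fold limit DESeq2 gave an FDR under 0.05 for 5 members, against 1.89% of all genes. The B cell marker score was -0.42 to 1.81 in WT and -1.48 to 0.14 in S1PR4-/- non-TFH samples, and the proliferation list had a median log2 fold change of 0.31. Of the 8 B cell markers tested there, 6 had an unadjusted p under 0.05 and 1 had a positive value. Of the 16 proliferation genes 1 had such a p and 15 had a positive value. With the proliferation score as a covariate 8 members had an unadjusted p under 0.05 (9.84% of all genes), the log2 fold change was positive for 23 of the 31, and the median of the members was 0.081. The plasma cell marker score was 0.96 to 2.31 in WT and 0.34 to 1.41 in S1PR4-/- non-TFH samples, and 1 of the 7 plasma cell markers tested, Mzb1 (-3.77, adjusted p = 0.016), was called lower. Of the 7, 3 had an unadjusted p under 0.05 and 2 had a positive value. The part of B cell and plasma cell RNA in these values was not tested in non-TFH cells.

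**Figure D4:**
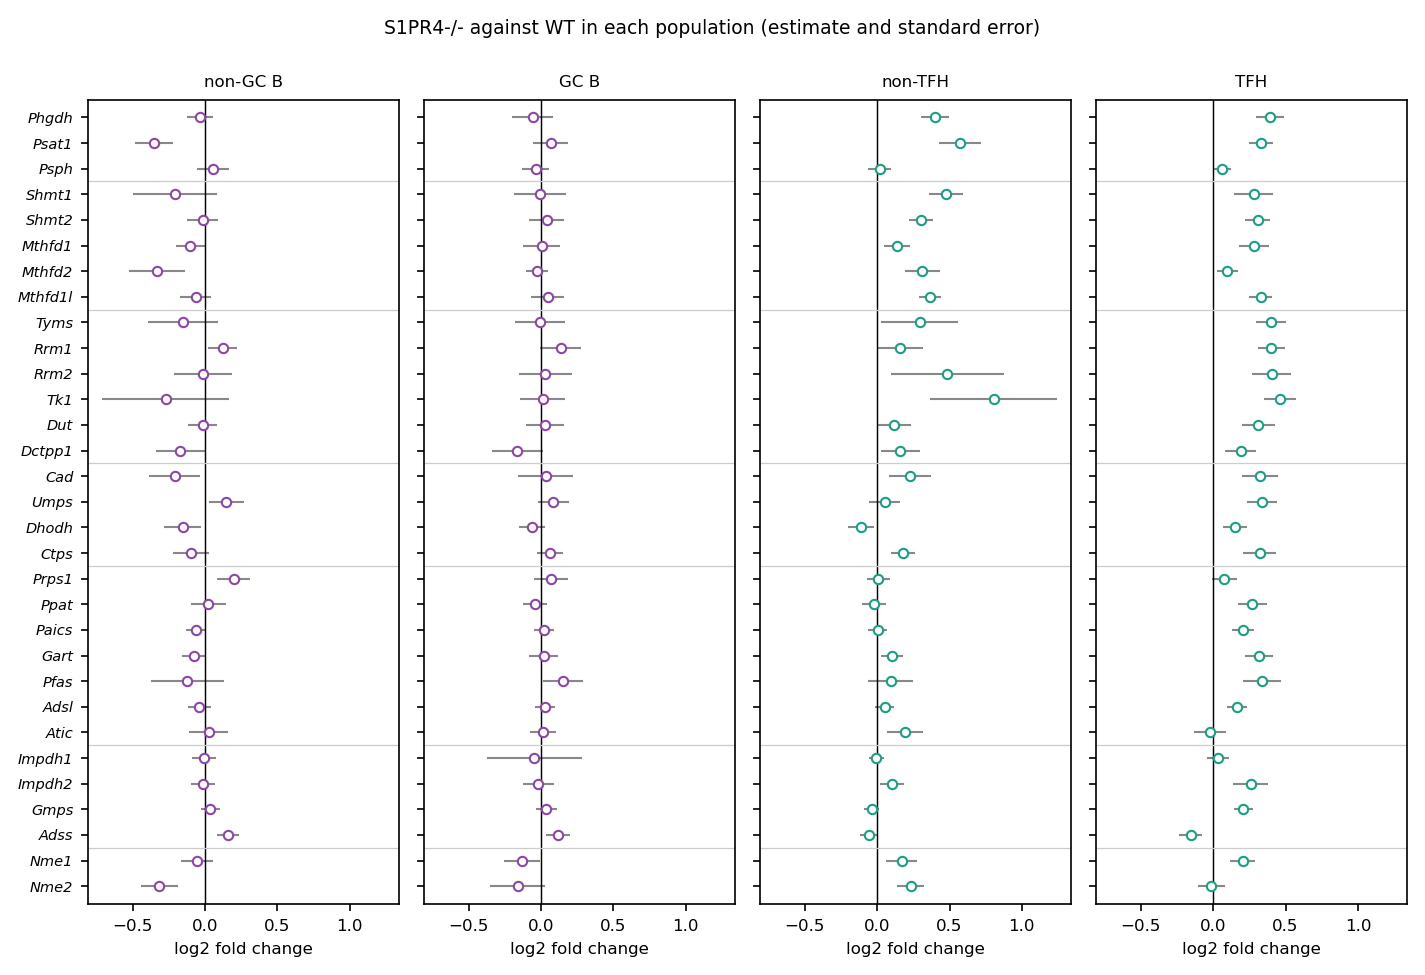
Log2 fold change of each of the 31 genes in S1PR4-/- against WT cells of each population, with bars for the standard error and open points for genes not called. The points centre near 0 in GC B cells, lie to the left of 0 for 23 of the 31 genes in non-GC B cells and lie mostly to the right of 0 in non-TFH and TFH cells, with no called gene in any panel.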

How the data were processed

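Reads were trimmed with Cutadapt 2.10, aligned to mm10 with STAR 2.5.3, marked for duplicates with Picard and quantified with RSEM 1.3.0 by the authors, who deposited expected counts for each gene without depth or length scaling (8.83% of values are not whole). After oligo-dT capture, libraries were made with a stranded total RNA kit (Ribo-Zero Plus). The strand setting used in counting is not given in the sources used here. The methods name GENCODE M30, whereas 55423 of the 55450 symbols in the table are in GENCODE M21 (27 are not), from which coordinates and exon lengths were taken.

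Expected counts were rounded, filtered with filterByExpr, scaled by TMM and tested with edgeR 4.0.16 (R 4.3.3), 2 groups at a time or 4 for an interaction, with p-values adjusted over all genes. Genes with FDR < 0.05 and more than 1.5-fold change were called, or by FDR alone in interactions. Standard errors were derived from edgeR's F statistic. CPM values were scaled over all 45 samples, and scores are mean log2 CPM (prior count 2). DESeq2 1.42.0, other scalings and filters, covariates and leaving out each sample were alternatives. Fits were tested on simulated data.

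The members and gene lists were chosen with earlier results of these data known. Full values are given for the members with the largest change in each role, for the isozyme pairs and neighbours, and for the 3 members with the lowest p in each comparison of genotypes; from other lists, at most 4 members with the largest change. Further genes were named after their values were seen. Some genes of the other lists are not reported here. Replicate numbers come from the labels, which do not say that they mark a mouse. Same-numbered samples deviated together, with correlations over 0.1 in every pair, only for TFH and non-TFH cells of S1PR4-/- mice (0.118 to 0.184), and the replicate block left 16 members called there. Without the fold limit 26 members had an FDR under 0.05 in that blocked fit, as did 70.8% of all genes.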

Additional observations from a re-analysis of the deposited data

Results flagged for a closer look

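Of the 248 groups of samples examined for the 31 genes, 13 held a sample set apart from the others of its group by Dixon's criterion, where chance gives about 1 in 20. In WT non-GC B cells these were Psat1 in sample 1 (20.7 CPM, low), Tyms in sample 5 (7.22 CPM, high), Dctpp1 in sample 2 (10.98 CPM, high) and Umps in sample 4 (67.3 CPM, high). In S1PR4-/- non-GC B cells they were Prps1 in sample 1 (83.9 CPM, high) and Adss in sample 3 (64.4 CPM, low). In WT GC B cells Atic stood high in sample 3 (26.0 CPM) and Impdh1 in sample 2 (103.1 CPM). In S1PR4-/- TFH cells Dhodh stood low in sample 3 (28.9 CPM), which is also the S1PR4-/- TFH sample with the highest B cell marker score. In WT non-TFH cells Dut stood high in sample 1 (41.7 CPM). In S1PR4-/- non-TFH cells sample 1 stood high for Rrm2 (149.5 CPM), Dctpp1 (15.8 CPM) and Impdh2 (105.6 CPM), and it also had the highest proliferation score of its group (6.17).

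The change from non-GC to GC B cells and that from non-TFH to TFH cells differed by an interaction test in WT mice for 20 genes. The differences, on the log2 scale and more positive in B cells in each case, were 0.59 for Psph, 1.24 for Shmt2, 1.10 for Mthfd2 and 0.35 for Mthfd1l among the serine and folate genes. They were 1.03 for Tyms, 2.30 for Rrm2 and 1.11 for Dut among the deoxynucleotide genes, and 1.01 for Umps and 0.80 for Ctps among the pyrimidine genes. Among the purine genes they were 0.94 for Prps1, 0.66 for Ppat, 0.79 for Paics, 1.11 for Gart, 0.64 for Adsl, 1.69 for Impdh1, 0.52 for Impdh2, 0.40 for Gmps and 0.84 for Adss. The kinases Nme1 and Nme2 differed by 0.69 and 0.87. Cell lineage and day of sorting cannot be told apart in these differences.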

How the results depend on the processing

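Settings were changed one at a time. The number of members called kept within 1.5 times its value, and the medians within the spread between replicates, in 440 of 449 cases. The exceptions were these. Without the fold limit, 27 members passed in WT TFH, 26 in S1PR4-/- TFH cells and 1 in S1PR4-/- against WT TFH cells. In that last comparison the median was 0.11 with the B cell score and -0.00284 with the proliferation score as a covariate, and the members at an unadjusted p under 0.05 numbered 4 and 3 with these covariates, 6 without the 3 WT samples and 10 without the 4 samples of highest B cell score (this count, the proliferation covariate and both sets of left-out samples were chosen after seeing the data). Leaving out each sample gave 26 to 29 members called in WT GC B, 27 to 28 in S1PR4-/- GC B, 12 to 13 in WT TFH and 15 to 17 in S1PR4-/- TFH cells, 19 to 21 in the interaction of B and T cells, and 15 to 24 members at an unadjusted p under 0.05 in S1PR4-/- against WT TFH cells and 6 to 8 in non-TFH cells. With total counts as the scaling the median of the members fell by 0.11 on the log2 scale in S1PR4-/- GC B cells, and no member with an FDR under 0.05 changed sign under that scaling or DESeq2's size factors. The replicate block gave 29 members called in WT GC B and 12 in WT TFH cells, and the share of all genes called with it is not given here. Without the fold limit 30 and 28 members had an FDR under 0.05 in these blocked fits, against 64.7% and 70.2% of all genes. The same block gave 3 members at an FDR under 0.05 in S1PR4-/- against WT TFH cells (0.971% of all genes). The numbers are not shown to pair the samples in that comparison of genotypes. Single values were recomputed only for the members named by the rule, and the rest were followed by counts. Shares over all genes are not given for the fits that left out each sample in turn. Among the named members, 16 values passed the call under some setting (Prps1, Dhodh, Impdh2 and Nme1) and 5 lost it, all for Dhodh in WT GC B cells. The largest standard error of a member in these comparisons of populations was 0.46, for Tk1 in S1PR4-/- GC B against non-GC B cells, and the gene with the lowest median count was Pfas (385).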
